A study of Mus musculus with 8 samples.

Results

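The MHC class II genes H2-Aa, H2-Ab1, H2-Eb1, H2-DMa, H2-DMb1, Cd74 and Ciita were followed across the immune, stromal and melanoma cells of B16F10 tumours. The members were chosen by gene symbol, as 7 of the 31053 genes in the deposited tables. All 7 were found once in each table. The study grew B16F10 cells, a mouse melanoma line, under the skin of 8 C57BL/6 mice and took the tumours when large. Of the hosts, 4 were Atf4wt/wt and 4 were Atf4D/D, and each tumour gave 1 single-cell 3′ RNA library. All hosts carried a tamoxifen-inducible Cre recombinase at Rosa26 and received tamoxifen. Only the Atf4D/D hosts had loxP-flanked Atf4, so the gene was removed from host cells and remained intact in the injected melanoma cells. The hosts were 12 weeks old by the labels, of both sexes.

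MHC class II molecules present peptides, mostly from material taken up by the cell, to CD4+ T cells. H2-Aa and H2-Ab1 encode the alpha and beta chains of H2-A, the class II molecule of C57BL/6 mice. H2-Eb1 encodes the beta chain of H2-E, whose alpha chain gene is not functional in this strain. Cd74 encodes the invariant chain, which occupies the groove until the molecule reaches the endosome, and also a surface receptor for the cytokine MIF. H2-DMa and H2-DMb1 encode chains of H2-DM, which exchanges the remnant of the invariant chain for peptide. Ciita encodes the transactivator that switches the whole set on, constitutively in dendritic cells and B cells and after interferon gamma in many other cells.

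In GRCm38, H2-DMa (chr17:34119541-34139101), H2-DMb1 (chr17:34153072-34160230), H2-Ab1 (chr17:34257689-34269419), H2-Aa (chr17:34282744-34287823) and H2-Eb1 (chr17:34305867-34316674) are protein-coding genes of the MHC on chromosome 17. H2-Aa lies on the minus strand and the others on the plus strand. H2-DMb1 has a near-identical neighbour, H2-DMb2 (chr17:34143307-34151555), so its counts are uncertain where reads could come from either copy.

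Promoters of class II genes carry conserved boxes, among them a Y box with the letters CCAAT that is bound by the factor NF-Y and an X box bound by the RFX complex. CIITA has no DNA binding of its own and acts through the proteins on these boxes. Promoters were taken from RefSeq (GRCm38.p6, 250 bases before to 50 after the start). H2-Aa, H2-Eb1, H2-DMa (2 windows) and H2-DMb1 had an entry, and H2-Ab1, Cd74 and Ciita had none. The stretches around the boxes of 3 members are shown because these genes share the activator, with CCAAT (either strand) and AGCAAC, a core of the X box (either strand), in capitals. The H2-Aa stretch is chr17:34287839-34287928 on the minus strand. The H2-Eb1 stretch is chr17:34305751-34305840 and the H2-DMb1 stretch chr17:34153116-34153145, both on the plus strand.
H2-Aa: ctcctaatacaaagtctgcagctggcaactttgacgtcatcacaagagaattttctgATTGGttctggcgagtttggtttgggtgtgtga
H2-Eb1: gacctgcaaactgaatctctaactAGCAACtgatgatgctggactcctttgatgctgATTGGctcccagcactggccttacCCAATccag
H2-DMb1: tgattcactcagtgATTGGtctgacctgcc
CCAAT was found in all 3 and in 1 of the 2 windows of H2-DMa, against 37.4% of the 32851 promoters in the table. AGCAAC was found in H2-Eb1 alone of these genes, against 14.8% of promoters. The longer TGATTGG, which contains the reverse of CCAAT and was added after the sequences were seen, was in H2-Aa, H2-Eb1 and H2-DMb1 and in 7.82% of promoters. The interferon-stimulated response element, taken as GAAA repeated after any 2 bases, was in none of these windows and in 3.44% of promoters. A match of these letters is a description and does not show binding.

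The 8 libraries held 37283598 to 74942137 unique molecular identifiers (UMIs, each standing for 1 captured RNA molecule) over 41925 barcodes, of which 28169 cells were kept. Between 2 and 14 barcodes were shared by any pair of libraries. A cluster of 242 cells, 231 of them from Atf4wt/wt tumour 4, was set aside because its median mitochondrial share was the highest of all clusters. Cells were clustered without the members and named from markers: 23720 were melanoma-like, 727 like cancer-associated fibroblasts (CAF-like), 896 immune and 37 endothelial-like, and 2789 cells with few UMIs stayed unnamed. Among the immune cells, 319 were monocyte-like, 272 like tumour-associated macrophages (TAM-like), 63 dendritic-like and 82 T/NK-like. The remaining 160 formed 3 subclusters that stayed unnamed. No cluster was named for B cells. Atf4 itself was at 278–323 CPM (UMIs of the gene per 1000000 UMIs) in CAF-like cells of Atf4wt/wt hosts and 90.2–171 in those of Atf4D/D hosts. In immune cells it was at 224–293 and 54.7–94.0 CPM, and in melanoma-like cells at 262–409 and 311–442 CPM.

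Dendritic-like and monocyte-like cells carried most of the class II RNA, TAM-like cells an order of magnitude less, and CAF-like and melanoma-like cells traces, with the exception of H2-Ab1 in CAF-like cells. Levels are CPM of the UMIs summed per tumour and class, over tumours with at least 10 cells of the class. Each RNA is tagged once at its 3′ end, so CPM was not divided by gene length.

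Among the chains that bind peptide, H2-Aa stood at 5661 ± 855 CPM (SD, n = 3 tumours) in dendritic-like cells. It fell in order to 2879 ± 768 in monocyte-like (n = 7), 167 ± 98.9 in TAM-like (n = 7) and 68.7 ± 137 in T/NK-like cells (n = 4). In CAF-like cells it was at 2.62 ± 5.43 and in melanoma-like cells at 0.934 ± 1.12 CPM (both n = 8). H2-Eb1 followed the same order, from 4337 ± 1938 CPM in dendritic-like and 2151 ± 764 in monocyte-like cells to 117 ± 88.9 in TAM-like, 3.17 ± 5.45 in CAF-like and 0.558 ± 0.601 in melanoma-like cells. H2-Ab1 was at 5203 ± 2954, 2869 ± 770 and 184 ± 112 CPM in dendritic-like, monocyte-like and TAM-like cells. It departed from its partner chain in CAF-like cells, where it was at 64.0 ± 26.0 CPM, against 0.703 ± 0.719 in melanoma-like cells.

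Cd74, on chromosome 18, was the most abundant member in immune cells. Its level was 11971 ± 2991 CPM in dendritic-like, 6784 ± 1348 in monocyte-like, 420 ± 235 in TAM-like, 8.87 ± 14.7 in CAF-like and 5.52 ± 5.32 in melanoma-like cells. The chains of H2-DM were lower throughout. H2-DMa was at 439 ± 151 CPM in monocyte-like, 426 ± 272 in dendritic-like and 74.5 ± 73.4 in TAM-like cells, and H2-DMb1 at 429 ± 178, 361 ± 370 and 30.1 ± 14.3 CPM. In melanoma-like cells H2-DMb1 (3.01 ± 1.34 CPM) was above H2-DMa (0.536 ± 0.281 CPM). Ciita, on chromosome 16, was close to the detection limit everywhere, with 15 UMIs in all immune cells (9 monocyte-like, 6 dendritic-like), 2 in CAF-like and 27 in melanoma-like cells. None was found in 272 TAM-like cells, which allows up to 4.41 CPM, or in 82 T/NK-like cells, which allows up to 33.8 CPM. These limits cover counting error only.

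**Figure D1:**
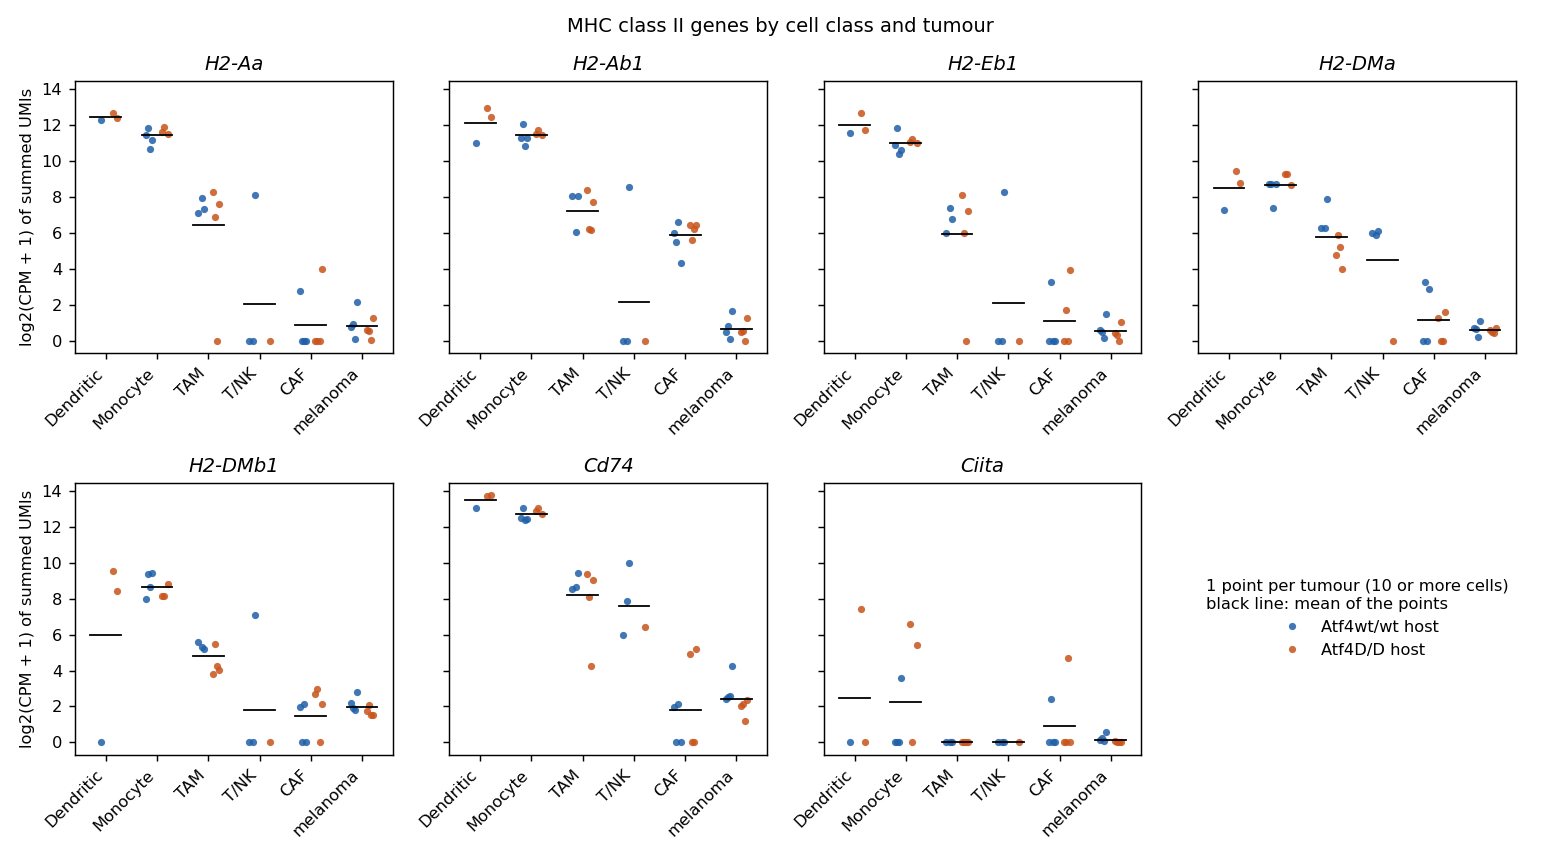
Level of each member in each cell class, as log2(CPM + 1) of UMIs summed per tumour, with 1 point per tumour with at least 10 cells of the class, coloured by host genotype, and a line at the mean. Dendritic-like and monocyte-like cells are highest for all members, and H2-Ab1 in CAF-like cells stands above the other members there.

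Within monocyte-like cells the tumours lay closest together for Cd74 and further apart for the other members. Cd74 was at 5792, 8536, 5252 and 5523 CPM in Atf4wt/wt tumours 1 to 4, and at 7418, 8356 and 6609.6 CPM in Atf4D/D tumours 1, 2 and 4, with 6169 CPM from 6 cells in tumour 3. Over the 7 tumours with at least 10 cells H2-Aa ran from 1606 to 3802, H2-Eb1 from 1338 to 3691 and H2-DMa from 167 to 618 CPM. Of the TAM-like cells, the tumours with at least 10 cells were between 17.9 CPM (1 UMI, Atf4D/D tumour 3) and 695 CPM for Cd74. For Cd74 no TAM-like value of these tumours reached any tumour's monocyte-like value. For H2-DMa the ranges overlapped, with TAM-like cells at up to 232 CPM. Within tumours, monocyte-like cells exceeded TAM-like cells by 3.79 ± 0.27 on the log2(CPM + 1) scale (mean ± SE) for Cd74, 3.84 ± 0.32 for H2-Aa, 3.93 ± 0.40 for H2-Ab1 and 3.95 ± 0.39 for H2-Eb1. Each difference held in 6 of 6 tumours with both classes (p = 0.0312, exact two-sided sign-flip permutation test, the smallest p possible with 6 tumours). H2-Ab1 was higher in CAF-like than in melanoma-like cells in 8 of 8 tumours, by 5.21 ± 0.42 (p = 0.00781, exact, the smallest possible with 8). Over the 35 comparisons of neighbouring classes, 7 had an unadjusted p under 0.05 and none passed Benjamini-Hochberg adjustment (lowest adjusted p = 0.156). The number of tumours sets this bound, and neighbours such as dendritic-like and monocyte-like cells, compared in 3 tumours (Cd74 higher by 0.80 ± 0.14, p = 0.25, the smallest possible, exact), were not told apart by the test.

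Cell by cell, class II RNA was unevenly held. Of monocyte-like cells, 70.2% had a UMI of any member and 34.5% had UMIs of all 3 chains, at a median of 1085 UMIs per cell. Of TAM-like cells, sequenced more deeply at a median of 2364.5 UMIs, 41.2% had any member and 4.78% all 3 chains. In melanoma-like cells, at a median of 10304 UMIs, 6.62% had any member and 0.0548% all 3 chains. The members took 1.49% of all UMIs of monocyte-like cells, 0.0886% in TAM-like, 0.011% in CAF-like and 0.00106% in melanoma-like cells. T/NK-like cells held 73 member UMIs, of which 49 were in a single cell of Atf4wt/wt tumour 4, and 10 of the 82 cells had any. With a finer clustering, chosen after the data were seen, 88 of the immune cells formed an unnamed subcluster led by Ifitm1, Mgl2, Naaa and Il1r2, in which the members took 3.74% of UMIs. In that subcluster 87 cells had a member and 78 had all 3 chains. Of its cells 64 came from the monocyte-like class and 24 from the dendritic-like class. Those 64 held 3366 of the 5453 member UMIs of monocyte-like cells (61.7%), so a minority carried most of the class. In the monocyte-like cells outside the subcluster Cd74 was at 3868 ± 1474 CPM, H2-Aa at 1563 ± 873, H2-Ab1 at 1621 ± 473 and H2-Eb1 at 862 ± 526 CPM (SD, n = 7). Within tumours these cells still exceeded TAM-like cells for Cd74, by 3.02 ± 0.39, for H2-Aa (2.84 ± 0.58) and for H2-Ab1 (3.15 ± 0.57), each in 6 of 6 tumours (p = 0.0312, exact, the smallest possible). For H2-Eb1 the difference was 2.50 ± 0.75, in 5 of 6 tumours (p = 0.0625, exact).

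The dendritic-like cells came from 2 subclusters that differed in the members. The 23 cells led by Naaa, Cst3 and Wdfy4 with Clec9a, a receptor of cross-presenting dendritic cells, all had UMIs of all 3 chains, with a median of 82 member UMIs per cell. The members were 4.52% of their UMIs. The 40 cells led by Ccl5, Ccr7 and Fscn1, genes of mature migrating dendritic cells, had a median of 7 member UMIs, and 36 of them had any. The members were 1.03% of their UMIs. H2-DMa had 36 UMIs in the Clec9a cells and 2 in the Ccr7 cells, and H2-DMb1 had 36 and 3. Since all genes other than the listed ones took part in the clustering, these are descriptions with no test.

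The alpha and beta chains of H2-A were near balance in monocyte-like and TAM-like cells and furthest from it in the Ccr7 cells and in CAF-like cells. H2-Ab1 made up 50.3% of the UMIs of both chains in monocyte-like cells (1011 against 998 UMIs, exact 95% binomial interval 48.1–52.5) and 48.8% in TAM-like cells (41.8–55.8). In the Clec9a cells it made up 56.3% (422 against 328 UMIs, 52.6–59.9). In the Ccr7 cells it made up 19.4% (37 against 154 UMIs, 14.0–25.7). Of the 7 tumours with Ccr7 cells, H2-Ab1 was below H2-Aa in 7. The counts were 3 against 19, 3 against 15, 1 against 4 and 7 against 46 in Atf4wt/wt tumours, and 2 against 30, 16 against 23 and 5 against 17 in Atf4D/D tumours 1, 2 and 4. CAF-like cells showed the opposite, with 92.0% H2-Ab1 (275 against 24 UMIs, 88.3–94.8). In melanoma-like cells the share was 43.1% (166 against 219 UMIs, 38.1–48.2). It was 34.0% in a cluster of these led by interferon-induced genes, described further on (48 against 93, 26.3–42.5), and outside that cluster the counts were 118 and 126. The intervals cover counting error only, and the UMIs of 1 cell are not independent.

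**Figure D2:**
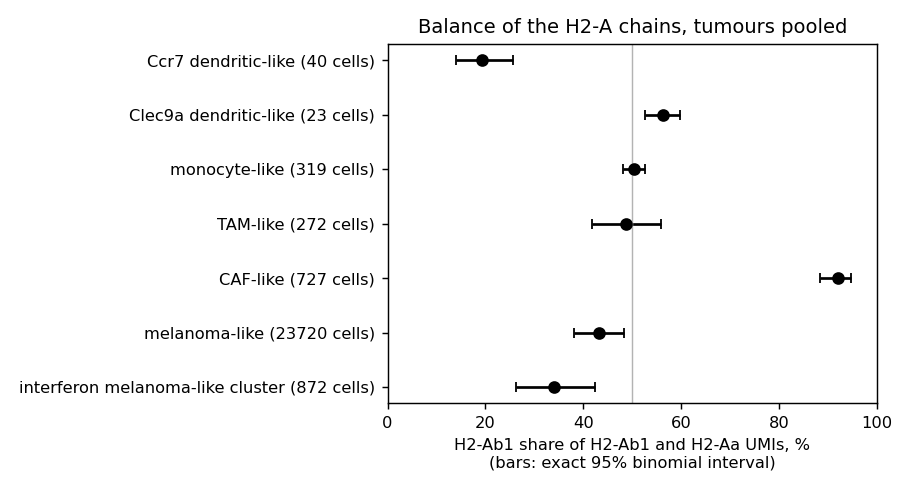
Share of H2-Ab1 among the UMIs of H2-Ab1 and H2-Aa in each cell set, tumours pooled, with the exact 95% binomial interval as bars and a line at 50%. Ccr7 dendritic-like cells lie at 19.4%, monocyte-like and TAM-like cells at the line and CAF-like cells at 92.0%.

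In CAF-like cells H2-Ab1 was found with hardly any other member. Its UMIs numbered 21, 10, 29 and 6 in Atf4wt/wt tumours 1 to 4 and 61, 21, 3 and 124 in Atf4D/D tumours 1 to 4. These correspond to 62.0, 44.0, 96.7 and 18.9 CPM and to 84.7, 47.3, 73.5 and 84.7 CPM, so the genotypes overlapped. In the same cells H2-Aa had 2 UMIs in Atf4wt/wt tumour 1, 22 in Atf4D/D tumour 4 and 0 in the other 6 tumours. The log2 ratio of H2-Ab1 to H2-Aa, with 0.5 UMIs added to each, ran from 2.47 to 6.94 in CAF-like cells and from -0.23 to 1.84 in immune cells of the same tumours. It was higher in CAF-like cells in 8 of 8 tumours, by 4.14 ± 0.71 (mean ± SE, p = 0.00781, exact sign-flip permutation test, the smallest possible, added after the data were seen).

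H2-Ab1 was detected in 160 of the 727 CAF-like cells (22.0%, median 4585 UMIs per cell), against 0.481% of melanoma-like cells (median 10304 UMIs). With each cell thinned to 1000 UMIs the shares were 6.59% and 0.0633%. Of the 160 cells, 5 had a UMI of Cd74, 4 of H2-Aa, 3 of the myeloid adaptor Tyrobp and 2 of the leukocyte gene Ptprc, and 153 had the collagen gene Col1a1. Of the 266 immune cells with H2-Ab1, 91.0% had Cd74 and 79.7% had H2-Aa. Without the 5 CAF-like cells that carried at least 3 UMIs of 12 immune reference genes, H2-Ab1 kept 258 of 275 UMIs, whereas H2-Aa kept 2 of 24 and Cd74 22 of 75. A single cell of Atf4D/D tumour 4 held 82 of the 147 UMIs of the other 6 members together with 27 UMIs of the immune reference genes, and a second held 19, all of Cd74, with none. Leaving out 84 CAF-like cells with melanoma-marker UMIs left 254 UMIs of H2-Ab1. Among subclusters, H2-Ab1 was at 127 CPM pooled over tumours (207 UMIs) in 383 cells led by Spp1, Inhba and Ndrg1, at 21.4 CPM (13 UMIs) in 130 cells led by Cxcl13, Ptx3 and Pi16, and at 63.6 CPM (33 UMIs) in 81 dividing cells. It had 0 UMIs in 55 cells led by Rgs5, a pericyte gene. Ciita had 2 UMIs in all CAF-like cells, in neither case in a cell with H2-Ab1.

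**Figure D3:**
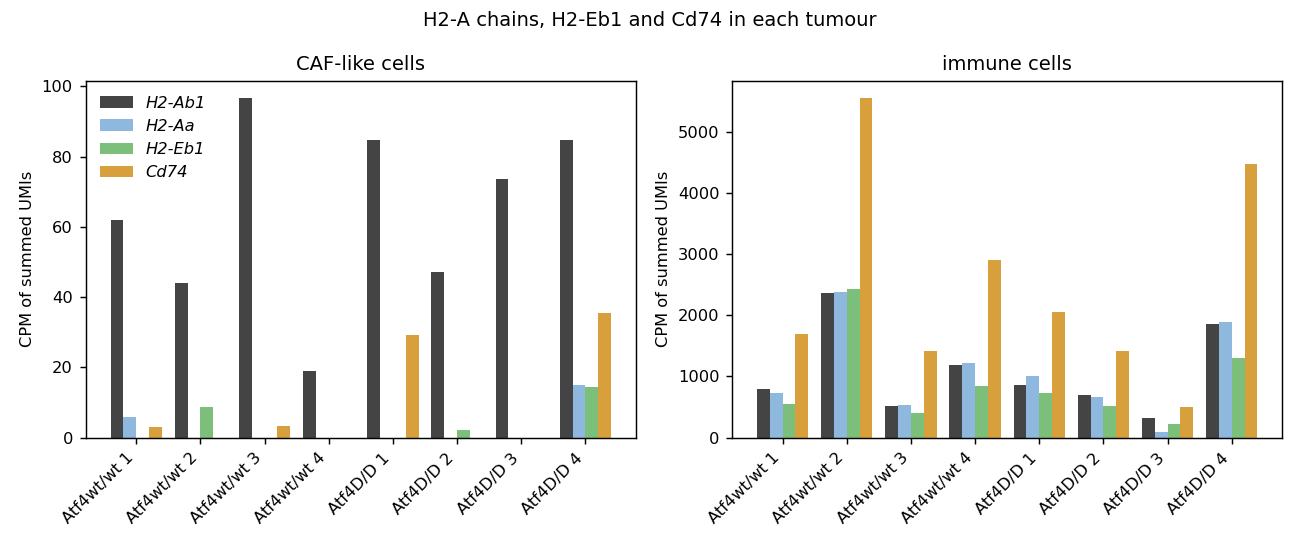
Members in CAF-like cells by tumour. H2-Ab1 is present in all 8 tumours, from 18.9 to 96.7 CPM, whereas H2-Aa has UMIs in Atf4wt/wt tumour 1 and Atf4D/D tumour 4 alone, and Cd74 is at or near 0 except in Atf4D/D tumours 1 and 4.

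In melanoma-like cells the members were rare, and a part of what was counted can be RNA released by other cells and captured with them. Each member's ratio of melanoma-like to immune CPM was therefore compared with that of 12 genes that mark immune cells, such as Tyrobp, Lyz2 and C1qa. Their melanoma-like level was 0.0234–0.239% of the immune level, pooled over tumours. H2-DMb1 reached 1.98%, H2-DMa 0.355% and Cd74 0.216% of the immune level. H2-Aa reached 0.0849%, H2-Eb1 0.0695% and H2-Ab1 0.0644%. Within tumours the log2 ratio exceeded the median of the reference genes by 6.05 ± 0.61 for H2-DMb1, 3.26 ± 0.42 for H2-DMa and 2.59 ± 0.40 for Cd74. Each did so in 8 of 8 tumours (adjusted p = 0.0156 over 6 members, exact sign-flip permutation test). H2-Aa (0.80 ± 0.37, adjusted p = 0.117), H2-Eb1 (0.31 ± 0.26, 0.319) and H2-Ab1 (0.16 ± 0.35, 0.656, all exact) did not pass. H2-DMb1 and H2-DMa were above every reference gene in the pooled ratio, whereas Cd74 was below the highest of them, Fcer1g. Ciita, with 15 UMIs in immune cells, was not tested. H2-DMb1 was found in 697 melanoma-like cells (2.94%). Of these, 21 also had H2-DMa, and 13.6% had a UMI of an immune reference gene, against 10.3% of the melanoma-like cells without H2-DMb1.

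One melanoma-like cluster of 872 cells was led by interferon-induced genes (Ifit1, Ifit3, Rsad2, Isg15 and Cxcl10) and held the highest levels of the class II chains among melanoma-like cells. Cd74 in this cluster was at 23.4, 68.4, 6.28 and 93.0 CPM in Atf4wt/wt tumours 1 to 4 and at 5.86, 4.94, 5.78 and 33.7 CPM in Atf4D/D tumours 1 to 4. In the other melanoma-like cells it was at 3.55, 3.14, 5.04 and 11.1 CPM and at 2.94, 3.32, 1.18 and 3.78 CPM. The cluster was the higher in 8 of 8 tumours, by a narrow margin in Atf4wt/wt tumour 3 and Atf4D/D tumour 2. The mean difference was 1.94 ± 0.48 on the log2(CPM + 1) scale (p = 0.00781, the smallest possible, adjusted p = 0.0547 over 7 members, exact sign-flip permutation test). H2-Aa was at 9.72, 22.4, 0 and 22.7 CPM in the Atf4wt/wt tumours and 0, 1.24, 0 and 27.0 CPM in the Atf4D/D tumours. Those values rested on 17, 17, 0 and 49 UMIs and on 0, 2, 0 and 8. The differences were 1.74 ± 0.69 for H2-Aa (higher in 5 of 8 tumours), 1.33 ± 0.43 for H2-Ab1 (6 of 8), 1.30 ± 0.42 for H2-DMa (6 of 8), 1.11 ± 0.52 for H2-Eb1 (4 of 8), 0.85 ± 0.38 for H2-DMb1 (7 of 8) and 0.60 ± 0.33 for Ciita (3 of 8). By the exact test none of the 7 members passed adjustment, and 3 (Cd74, H2-Ab1 and H2-DMa) had an unadjusted p under 0.05. Ciita had 13 of its 27 melanoma-like UMIs in this cluster, 3, 2, 0 and 8 in the Atf4wt/wt tumours and none in the Atf4D/D tumours.

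RNA of immune cells was also counted in this cluster. Without cells that carried at least 3 UMIs of the immune reference genes, again no member passed adjustment in this comparison. The part of immune RNA in the cells left in was not tested. The summed level of the 12 immune reference genes was 13.7, 7.89, 18.0 and 50.9 CPM in the Atf4wt/wt tumours and 7.81, 57.5, 6.94 and 3.37 CPM in the Atf4D/D tumours. In the other melanoma-like cells it was 11.02, 6.71, 10.5 and 21.9 CPM and 9.96, 20.8, 5.41 and 16.7 CPM. All 12 genes had UMIs in the cluster, Ptprc with 3 and Csf1r with 5. Across melanoma-like cells, 34 had at least 3 UMIs of the 3 chains, and 21 of these were in the interferon cluster (2.41% of its cells, against 0.0569% of the others). Of the 34 cells, 33 had Cd74 and 3 had Ciita, 19 had no UMI of the immune reference genes and 10 had 3 or more. By tumour, the 21 cells were 6, 3, 0 and 10 in Atf4wt/wt tumours 1 to 4, and 0, 0, 0 and 2 in Atf4D/D tumours 1 to 4.

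Cd74 was also high, without the chains, in another melanoma-like cluster. Its 2406 cells were led by Fgf21, Cdsn and Grb14 with Nupr1, and Fgf21 and Nupr1 are known stress-response targets of ATF4. Cd74 was there at 22.0, 15.8, 18.7 and 34.5 CPM in the Atf4wt/wt tumours and 12.96, 10.7, 11.3 and 11.7 CPM in the Atf4D/D tumours. The remaining melanoma-like cells, leaving out the interferon cluster too, were at 2.48, 1.87, 2.83 and 6.38 CPM and at 1.78, 2.50, 0.306 and 3.21 CPM. The difference was 2.35 ± 0.18 on the log2(CPM + 1) scale, with the Fgf21 cluster higher in 8 of 8 tumours. It was noticed in these data and is given with no test. H2-Aa in the same cells had 10 UMIs (0.434 CPM pooled, against 0.515 in the remaining cells), H2-Ab1 9 and H2-Eb1 4. Of the 206 cells of the Fgf21 cluster with Cd74, 4 (1.94%) had a chain, against 37 of 95 (38.9%) in the interferon cluster and 297 of 366 (81.1%) in immune cells. In the 1989 unnamed cells with few UMIs led by Malat1 Cd74 was at 37.6 CPM pooled (122 UMIs). By tumour it ran there from 5.21 to 111 CPM (median 17.9), against 10.7 to 34.5 CPM (median 14.4) in the Fgf21 cluster. Of the 80 unnamed cells with Cd74, 2 (2.50%) had a chain. An immune reference gene was found in 11.2% of the 206 cells, in 15.8% of the 95 and in 99.2% of the 366.

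**Figure D4:**
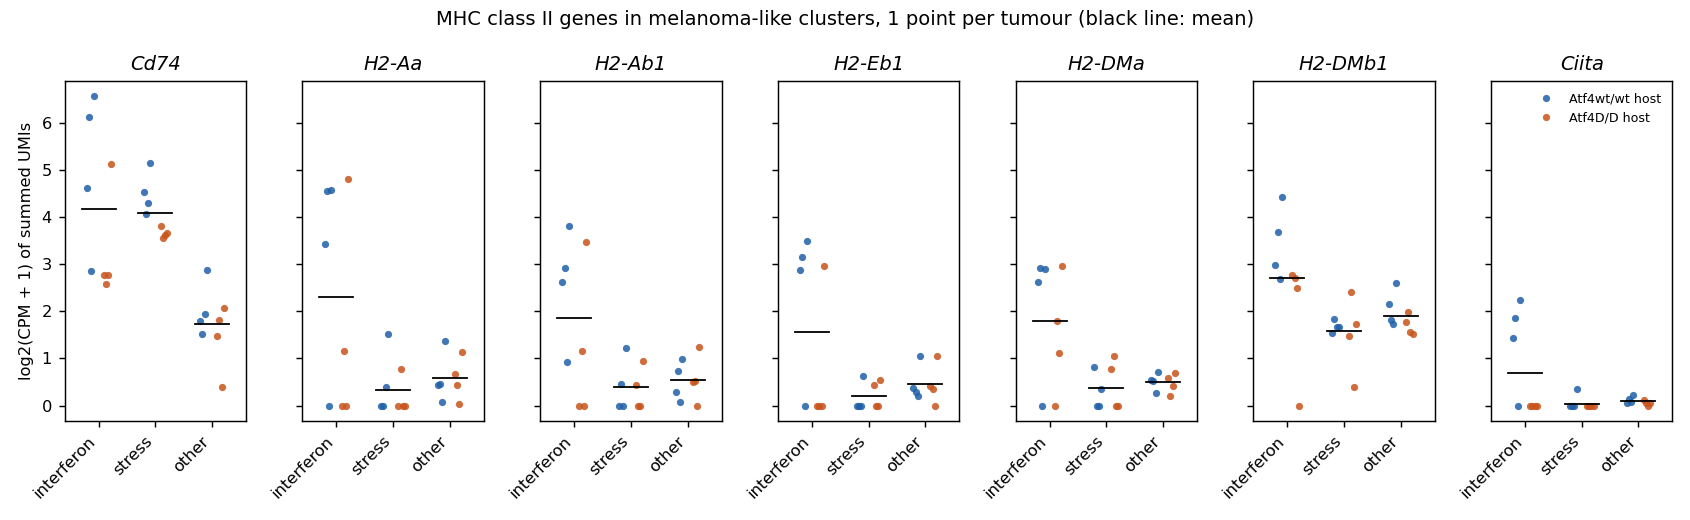
Level of each member as log2(CPM + 1) in the interferon cluster, the Fgf21 cluster (stress) and the remaining melanoma-like cells (other), with 1 point per tumour, coloured by host genotype, and a black line at the mean. Cd74 is raised in both clusters, whereas the chains and Ciita are raised in the interferon cluster of some tumours.

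The comparison by host genotype asked whether loss of Atf4 in the host went with a change of class II expression in any class. No member passed an adjusted p of 0.05 in any class by edgeR's quasi-likelihood test, and none by DESeq2. Fewer cells with the RNA and less RNA per cell cannot be told apart in these sums. In immune cells, where 0.0308% of all tested genes were called, all 6 members tested were lower in Atf4D/D tumours, and their median log2 fold change was -0.36 against 0.01 over all tested genes, and none had an unadjusted p under 0.05. That count changed with 1 tumour and with a covariate. Without Atf4wt/wt tumour 2 the number lower was 2 of 6 and the median 0.19, and with the sex of the mouse as covariate 3 of 6 were lower. The log2 fold changes (± SE, edgeR) were -0.41 ± 0.55 for Cd74 (adjusted p = 0.853), -0.32 ± 0.62 for H2-Aa (0.914), -0.29 ± 0.50 for H2-Ab1 (0.899), -0.48 ± 0.56 for H2-Eb1 (0.818), -0.19 ± 0.36 for H2-DMa (0.914) and -0.70 ± 0.56 for H2-DMb1 (0.707). Cd74 in immune cells was at 1691, 5560.2, 1419.7 and 2900.5 CPM in the Atf4wt/wt tumours and 2062, 1416, 493 and 4479 CPM in the Atf4D/D tumours, so the groups overlapped.

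The make-up of the immune cells also differed between tumours, and its part in these sums was not tested. Monocyte-like cells were 21.4%, 63.9%, 22.7% and 62.4% of immune cells in the Atf4wt/wt tumours and 23.8%, 9.19%, 17.1% and 54.1% in the Atf4D/D tumours. TAM-like cells were 31.1%, 11.1%, 35.2% and 13.4%, and 33.8%, 61.1%, 51.4% and 12.3%. Cd74 in immune cells was at 5560.2 CPM in Atf4wt/wt tumour 2 (36 immune cells) and 2900.5 CPM in Atf4wt/wt tumour 4. It was at 4479 CPM in Atf4D/D tumour 4 (220 immune cells). These tumours had the largest shares of monocyte-like cells and the highest Cd74 levels of all tumours. Atf4D/D tumour 2, with the smallest share, had 1416 CPM and 15 dendritic-like cells. Atf4D/D tumour 3 had 493 CPM and 0 dendritic-like cells. Within monocyte-like cells (4 against 3 tumours, 0.477% of genes called), 2 of the 6 members tested were lower in Atf4D/D tumours, and none was called or had an unadjusted p under 0.05. Cd74 differed by 0.17 ± 0.17, H2-Aa by 0.27 ± 0.22, H2-Ab1 by 0.07 ± 0.22, H2-DMa by 0.43 ± 0.34 and H2-DMb1 by -0.55 ± 0.35 (log2 fold change ± SE, edgeR). Within TAM-like cells (3 against 4 tumours, 0.09% called) the members tested were Cd74 (-0.36 ± 0.55), H2-Aa (-0.23 ± 0.59) and H2-Ab1 (-0.26 ± 0.61), with none called and none under 0.05 unadjusted. Dendritic-like cells reached at least 5 cells in 2 Atf4wt/wt and 3 Atf4D/D tumours. None of 5 members was called there, nor was any of the 252 genes tested (0% called), and the lowest unadjusted p, of H2-Aa, was 0.669 by edgeR. In T/NK-like cells no member passed the filter on low counts.

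In CAF-like cells H2-Ab1 was the one member with enough counts to be tested. Its log2 fold change was 0.46 ± 0.35 in Atf4D/D over Atf4wt/wt tumours (adjusted p = 0.909, edgeR), where 0.0431% of tested genes were called. The share of CAF-like cells with H2-Ab1 was 17.2 ± 8.92% in Atf4wt/wt and 22.5 ± 5.77% in Atf4D/D tumours (SD, n = 4 each, p = 0.343, adjusted p = 0.709, exact permutation test). Shares of cells with a member were compared in 21 tests over immune, CAF-like and melanoma-like cells. None had an unadjusted p under 0.05 (lowest p = 0.0571, smallest possible 0.0286, exact permutation tests).

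In melanoma-like cells, where 0.0319% of genes were called, all 6 members tested were lower in Atf4D/D tumours, and their median log2 fold change was -0.73 against a median close to 0 over all tested genes. Without Atf4wt/wt tumour 4 the number lower was 4 of 6 and the median -0.081, and without Atf4D/D tumour 4 the median was -1.68. Cd74 was at 4.26, 4.75, 5.09 and 18.4 CPM in the Atf4wt/wt tumours and 2.99, 3.41, 1.28 and 4.05 CPM in the Atf4D/D tumours. The groups did not overlap, and Atf4wt/wt tumour 4 stood far above the rest. How many of all tested genes separate the groups in the same way was not counted. Cd74 differed by -1.49 ± 0.49 (adjusted p = 0.330, edgeR), and by -0.73 (adjusted p = 0.415) without that tumour. H2-DMb1 was at 3.51, 2.73, 2.44 and 5.99 CPM and at 2.41, 3.21, 1.88 and 1.87 CPM. It differed by -0.68 ± 0.28 (adjusted p = 0.404, edgeR). These 2 of the 6 members tested had an unadjusted p under 0.05, as did 1416 of all 12554 genes tested, and no member was called. Without cells that carried at least 3 UMIs of the immune reference genes, Cd74 differed by -1.67 (adjusted p = 0.258). Outside the interferon cluster the summed level of those reference genes was 21.9 CPM in Atf4wt/wt tumour 4 and 20.8 CPM in Atf4D/D tumour 2. Cd74 in the same cells was at 11.1 and 3.32 CPM. The immune cells of these tumours also differed, with Cd74 at 2900.5 and 1416 CPM. Monocyte-like cells were 62.4% and 9.19% of them. The values of the other tumours are given above with the interferon cluster. The part of RNA released by immune cells in these levels was not tested.

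Within the interferon cluster 0.327% of genes were called, and Cd74 was the one member tested. It differed by -2.58 ± 0.63 (adjusted p = 0.0856, edgeR), and by -2.04 with DESeq2 (adjusted p = 0.923). The values above overlap through Atf4D/D tumour 4, whose cluster had 25 cells and 10 UMIs of Cd74. The call depended on the tumours and the fit. Without cells that carried at least 3 UMIs of the immune reference genes the difference was -2.43 and was not called. Without Atf4wt/wt tumour 4 the difference was -1.84 (adjusted p = 0.430). It was called without Atf4wt/wt tumour 3 (-2.90, adjusted p = 0.00558) and with the replicate number as a block (-2.31, adjusted p = 0.00404). In these settings 0.434% and 0.327% of genes were called. Of the 26 called genes 13 were higher and 13 lower in Atf4D/D tumours. Among them, named after their values were seen, were S100a6 (1.27 ± 0.27, adjusted p = 0.0389), a calcium-binding protein, Psmb9, a subunit of the immunoproteasome (-2.24 ± 0.40, adjusted p = 0.0108), and the interferon-induced GTPase genes Iigp1 (-2.74 ± 0.46, 0.00756), Gbp2 (-1.83 ± 0.27, 0.00467) and Igtp (-1.63 ± 0.27, 0.00756). Of a list of 20 interferon-induced genes 19 were tested, 2 (Gbp2 and Gbp3) were called lower and none higher, with a median log2 fold change of -0.19. The excess of the cluster over the other melanoma-like cells was also compared between genotypes for each member. It was lower in Atf4D/D tumours for all 7, with differences from -0.65 (H2-DMa) to -1.63 (H2-Eb1), and none passed (lowest p = 0.0857 for H2-Ab1 and H2-Eb1, smallest possible 0.0286, lowest adjusted p = 0.267, exact permutation test).

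**Figure D5:**
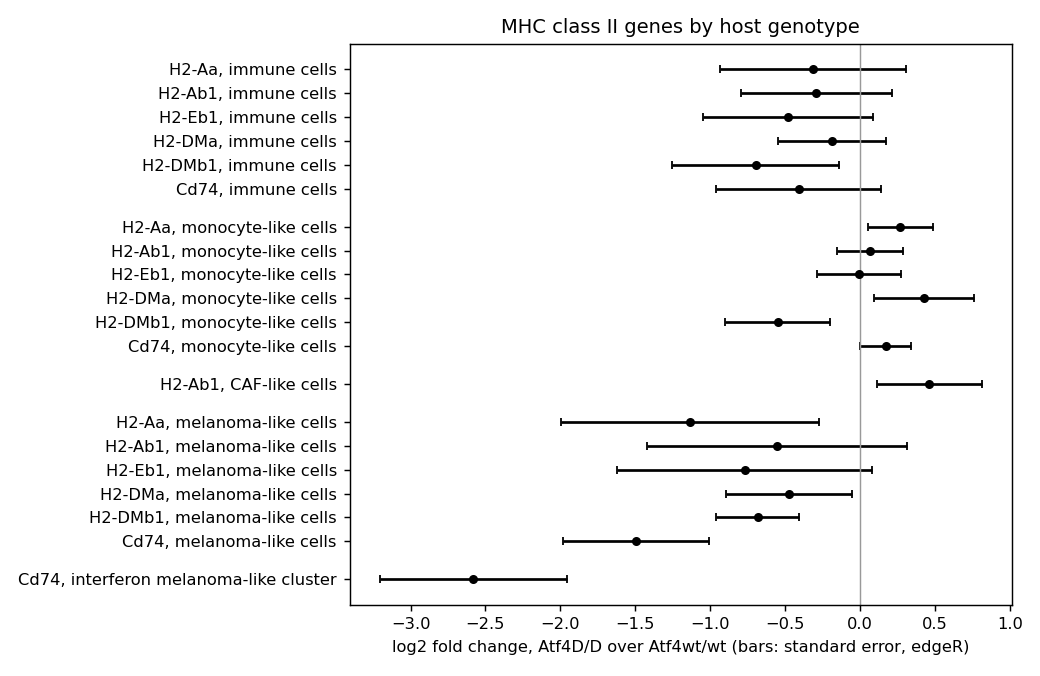
Log2 fold change of each tested member, Atf4D/D over Atf4wt/wt, by cell class, with the standard error from edgeR as bars and a line at 0. Members in immune and melanoma-like cells lie below 0, those in monocyte-like cells on both sides, and none was called.

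The other genes of the class II pathway were looked up by name, and all but H2-Ea-ps, H2-Ea, Ifi30, Mar1 and Marchf1 were found. In each class none of those tested was called by edgeR (11 in immune, 4 in monocyte-like, 5 in TAM-like, 9 in CAF-like, 19 in melanoma-like cells and 14 in the interferon cluster). Without the filter on low counts 3 were called in immune cells, Ctsb (0.79) and Lgmn (0.82) higher and Ifng (-4.02) lower in Atf4D/D tumours. That setting called 0.59% of all genes in immune cells and 0.757% in the interferon cluster. In the interferon cluster Irf1 (-1.48) and Irf8 (-3.37) were among those then called lower, and Irf1 also without Atf4wt/wt tumour 3 (-1.72, adjusted p = 0.0241, edgeR). The proteases that cut the invariant chain and antigens were the ones with the smallest unadjusted p in immune cells, all higher in Atf4D/D tumours. Ctsb differed by 0.74 ± 0.21 (adjusted p = 0.355), Ctss, which makes the final cut of the invariant chain, by 0.54 ± 0.17 (0.358), Lgmn by 0.77 ± 0.25 (0.361) and Ctsl by 0.62 ± 0.23 (0.409). Within TAM-like cells Ctsb differed by 0.25 ± 0.14 and Ctss by 0.12 ± 0.28, and within monocyte-like cells by -0.46 ± 0.27 and -0.16 ± 0.19. The factors that bind the promoter boxes were present in cells with and without class II RNA. Rfxap, a subunit of RFX, was at 60.3 CPM in melanoma-like, 43.9 in CAF-like, 68.1 in monocyte-like and 29.4 in TAM-like cells, pooled over tumours. The modulators of H2-DM, H2-Oa and H2-Ob, had 3 and 6 UMIs in monocyte-like cells and none in TAM-like cells. H2-DMb2 had 12 UMIs in monocyte-like cells and 7 in melanoma-like cells, against 757 of H2-DMb1 in the latter.

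Over 38 sums of a class in a tumour with at least 10 cells, the genes outside the members whose log2(CPM + 1) ran most like the members' mean were Il1b (Pearson r = 0.964), Csf2rb (0.950), Cd86 (0.938), Plbd1 (0.928) and Cd83 (0.925). Il1b encodes a cytokine of myeloid cells, Csf2rb the common receptor chain for GM-CSF, IL-3 and IL-5, Cd86 a costimulatory ligand, and Cd83 a protein of mature dendritic cells that stabilises class II at the surface. The sums share libraries and differ in cell type and depth, so the coefficients are descriptions with no test.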

How the data were processed

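Single-cell 3′ RNA libraries of 8 tumours were analysed. The authors aligned reads to GRCm38 with Cell Ranger (3.1.0 in the submitters' processing notes, which also name Seurat 3.2.1) and deposited UMI counts of each barcode and gene, not normalized. The labels name a V3 kit and the study's methods an earlier one.

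From these counts, cells with 200 to 5000 genes and at most 7.5% mitochondrial UMIs were kept, as in the study. They were clustered with Seurat 5.3.0 in R 4.3.3 (20 components, resolution 0.7) without the members and pathway genes. Clusters were named from marker lists, with thresholds set after the clusters were seen. Cluster borders depended on the order of gene names in the clustering, and a second clustering is compared in the closing section. Doublets were not removed, and 78 CAF-like cells formed a subcluster led by melanoma genes. The members and lists were chosen with earlier results of these data known. Genes named are the 7 members, pathway genes from the first parts of their list, the immune reference genes as a group and the 5 genes most like the members; other names were chosen after their values were seen.

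UMIs were summed per tumour and class (at least 10 cells). Genotypes were compared with edgeR 4.0.16 (quasi-likelihood test, TMM factors, its filter on low counts) over all genes, with Benjamini-Hochberg adjustment at 0.05. DESeq2 1.42.0 was an alternative. Differences within tumours were tested by exact sign-flip permutation, and shares of cells by exact permutation of the 70 assignments, all two-sided. Levels used log2(CPM + 1), and ratios of melanoma-like to immune CPM used 0.5 UMIs added to each count. The class of monocyte-like cells, the fits in the interferon cluster, the chain ratio and the Fgf21 cluster were added after the data were seen. The labels give 1 library per tumour as biological replicates and no batch. Replicate numbers did not pair the samples: deviations from the group means correlated by -0.356 to 0.210 between samples of the same number. The edgeR fit was tried on simulated data with large changes in well-counted genes and 1 fixed spread. That trial does not cover members with few UMIs or a wide spread between tumours. Nothing from small tumours was analysed here.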

Additional observations from a re-analysis of the deposited data

Results flagged for a closer look

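Within groups of 4 tumours of 1 genotype, the highest or lowest tumour was tested for lying far from the other 3. Of 68 groups tested, 15 held such a tumour. The cutoff is passed by chance about 1 in 20 times only for normally distributed values. Where the other 3 tumours have no UMIs, any count in the last tumour passes by construction. The 15 can therefore not be set against that rate. Most rest on few UMIs of a member and share a handful of cells. In CAF-like cells they were H2-Aa in Atf4wt/wt tumour 1 (5.91 CPM, 2 UMIs) and Atf4D/D tumour 4 (15.03 CPM, 22 UMIs), H2-Eb1 in Atf4wt/wt tumour 2 (8.79 CPM, 2 UMIs) and Atf4D/D tumour 4 (14.3 CPM, 21 UMIs), and Ciita in Atf4wt/wt tumour 2 (4.40 CPM, 1 UMI) and Atf4D/D tumour 3 (24.5 CPM, 1 UMI). In the interferon cluster Atf4D/D tumour 4, with 25 cells, stood above the other Atf4D/D tumours for H2-Aa (27.0 CPM, 8 UMIs), H2-Ab1 (10.1 CPM, 3 UMIs), H2-Eb1 (6.75 CPM, 2 UMIs) and Cd74 (33.7 CPM, 10 UMIs, the others 4.94–5.86 CPM). In monocyte-like cells H2-DMa was low in Atf4wt/wt tumour 3 (167 CPM, 5 UMIs, the others 420–423 CPM), Cd74 was high in Atf4wt/wt tumour 2 (8536 CPM, the others 5252–5792 CPM), and Ciita was found in Atf4wt/wt tumour 4 alone of its genotype (10.8 CPM, 1 UMI). In TAM-like cells H2-DMb1 was high in Atf4D/D tumour 2 (44.2 CPM, 12 UMIs). In melanoma-like cells Cd74 in Atf4wt/wt tumour 4 was at 18.4 CPM (447 UMIs), against 4.26–5.09 CPM in the other Atf4wt/wt tumours. The cluster of 242 cells that was set aside, nearly all from that tumour, also held Cd74 (90 UMIs). Chemokine and interferon genes, Ccl5, Isg15 and Ifit1, were among its leading genes.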

How the results depend on the processing

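The numbers of members called by host genotype stayed at 0 in immune, monocyte-like, TAM-like and melanoma-like cells and all kept cells under DESeq2, no filter on low counts, no TMM factors, sex as covariate, other minimum cell numbers and classes from marker genes alone, where these could be fitted, and without each tumour. Without a filter on low counts 1 member was called in CAF-like cells (Cd74, log2 fold change 3.75, from 1, 0, 1 and 0 UMIs against 21, 0, 0 and 52) and 3 in the interferon cluster (Cd74, H2-Aa and H2-Eb1). Of all genes tested in this setting, 0.668% were called in CAF-like cells and 0.757% in the interferon cluster. Without Atf4wt/wt tumour 3 Cd74 in that cluster was called too (-2.90, adjusted p = 0.00558, 0.434% of genes called), so the count ran from 0 to 1 over the tumours left out. With the replicate number as a block 1 member was called there (Cd74, -2.31, adjusted p = 0.00404, 0.327% of genes called), and the block called none in any other class. The members passing in the comparison of melanoma-like with immune cells numbered 3 to 4 without each tumour, H2-Aa being the fourth without Atf4wt/wt tumour 3 (adjusted p = 0.0469). With classes from marker genes, 2 pairs of neighbouring classes passed adjustment. Directions changed for small fold changes. In immune cells sex as covariate gave 0.10 for H2-Aa, 0.075 for H2-Ab1 and 0.025 for H2-Eb1, and the ranges without each tumour crossed 0 for H2-Aa (-0.94 to 0.23), H2-Ab1 (-0.87 to 0.24), H2-Eb1 (-0.98 to 0.30), H2-DMa (-0.62 to 0.10) and Cd74 (-1.09 to 0.15). The median over the members ran from -0.96 to 0.19 in immune cells and from -1.68 to -0.081 in melanoma-like cells without each tumour, and was 0.011 and -0.47 with sex as covariate. In monocyte-like cells H2-Eb1 was 0.063 without the filter, 0.0088 without TMM factors, 0.077 with sex as covariate and 0.062 at a minimum of 5 cells, with -0.18 to 0.34 without each tumour, and H2-Ab1 ran from -0.041 to 0.30. In melanoma-like cells without each tumour H2-Ab1 ran from -1.65 to 0.33 and H2-Eb1 from -1.997 to 0.12, and the excess of H2-Ab1 over the immune reference ran from -0.045 to 0.37. Causes of these changes were not tested. A second clustering with gene names in another collation order, added after the data were seen, gave 17 clusters in place of 16. All 727 CAF-like, 895 immune and 862 of the 872 cells of the interferon cluster were shared with the first, and the tests against immune cells and within melanoma-like cells kept their direction and their side of the threshold. The Fgf21 cluster was less stable, with 3551 cells of which 2374 were shared, and its Cd74 excess was 2.11 ± 0.21 on the log2(CPM + 1) scale. Of the alternative counts of calls, 156 equalled the main count or lay close to it, such as 4 against 3, and 5 moved further. Depth limits Ciita, T/NK-like and dendritic-like cells, where few UMIs or tumours remained.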
